A study of Mus musculus with 36 samples.

Results

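The integrated stress response genes described here are 10 of the 55487 genes quantified in 36 bulk RNA-seq libraries of mouse retina and optic nerve. They were chosen by symbol, as known targets or effectors of the pathway: Atf4, Ddit3, Chac1, Trib3, Asns, Sesn2, Ddit4, Eif4ebp1, Nupr1 and Vldlr. All mice were C57BL/6, aged 2 to 4 months, with no engineered allele. From each animal 3 tissues were dissected, namely the unmyelinated optic nerve head (UON), the first myelinated stretch of nerve behind it (MON) and the retina. The groups were naive (0 D), optic nerve crush after 3 D or 2 W, and glaucoma, modelled by microbeads injected into the anterior chamber to raise eye pressure, after 3 D, 2 W or 6 W. Both operations were done on a single side with the mice under anaesthesia, and naive mice had neither. By the paper, the crush was made on the myelinated nerve, away from UON and retina. After crush, tissue and closeness to the lesion therefore cannot be told apart. Each of the 18 tissue, treatment and time groups had 2 libraries, 1 from a Female pool and 1 from a Male pool of 2 mice each, so that sex and pool cannot be told apart. Any p-value below measures the spread between such pools.

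In the integrated stress response, kinases that sense misfolded protein, missing amino acids, viral RNA or haem shortage phosphorylate the translation factor eIF2. Most protein synthesis then slows, while the mRNA of the transcription factor ATF4 is translated more, so that ATF4 activity can change with little change in Atf4 mRNA. ATF4, often paired with a C/EBP family protein, switches on genes for amino acid supply, for restraint of growth signalling and, when stress persists, for cell death. In the retina the pathway is best known from axon injury, where the PERK kinase, ATF4 and CHOP take part in the death of retinal ganglion cells (RGC), the neurons whose axons form the optic nerve.

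The DNA element that ATF4 and C/EBP proteins share was looked up first, because it is the sequence feature that ties several of these genes together. The core TGATGNAA was searched on both strands from 250 bases before to 50 bases after each gene's start in RefSeq (GRCm38.p6). It was present in 1304 of 32851 promoter windows (3.97%), or at 1219 of 27025 genes (4.51%). Of the 9 members with a window, 5 held it: Chac1, Trib3, Asns, Nupr1 and Vldlr, the last in the window of its second start. No entry was held for Eif4ebp1. The 60 bases around each match that lies before the start are shown 5′ to 3′ on the gene's own strand, with the core, or its reverse complement, in capitals.
Chac1: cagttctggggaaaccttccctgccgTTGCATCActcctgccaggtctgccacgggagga
Asns: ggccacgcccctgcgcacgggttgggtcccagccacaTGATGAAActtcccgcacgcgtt
Nupr1: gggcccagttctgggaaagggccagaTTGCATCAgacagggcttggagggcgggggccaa
Vldlr: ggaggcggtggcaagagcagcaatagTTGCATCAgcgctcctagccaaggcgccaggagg

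These stretches are chr2:119351023-119351082 (plus strand) for Chac1, chr6:7693210-7693269 (minus strand) for Asns, chr7:126625547-126625606 (minus strand) for Nupr1 and chr19:27216794-27216853 (plus strand) for Vldlr. Counted from the gene's start, the core began at base -193 in Chac1, -23 in Asns, -110 in Nupr1 and -200 from the second start of Vldlr. In Trib3 the match, TTACATCA on the gene's own strand and so the reverse complement of the core, began at base 15 after the start. Chac1, Nupr1 and Vldlr therefore carried the same TTGCATCA. Among the other pathway genes, the core was found at 5 of 13 cytosolic aminoacyl tRNA synthetases with a window (Aars, Gars, Iars, Tars and Yars), at 4 of 17 other amino acid supply genes (Pycr1, Pck2, Slc7a11 and Slc1a4), at 3 of 12 secreted or signalling targets (Fgf21, Herpud1 and Jdp2), at 1 of 12 eIF2 kinases and partners (Eif2s3x) and at 1 of 6 ATF and C/EBP factors (Atf3). It was found at 0 of 16 endoplasmic reticulum (ER) chaperones, 0 of 8 glucocorticoid targets, 0 of 12 hypoxia targets and 0 of 10 p53 targets. A match is a description of letters and says nothing of binding in these tissues.

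In the genome (GRCm38), Atf4 lies at chr15:80255184-80257541, Ddit3 at chr10:127290774-127296288, Chac1 at chr2:119351229-119354381, Trib3 at chr2:152337422-152344032 and Asns at chr6:7675169-7693254. Sesn2 lies at chr4:132492032-132510501, Ddit4 at chr10:59949669-59951834, Eif4ebp1 at chr8:27260329-27276674, Nupr1 at chr7:126623249-126630861 and Vldlr at chr19:27216484-27254231. The exons of Ddit3 overlap those of other annotated genes. Of its 1713 exonic bases, 105 are shared with a second Ddit3 entry on the same strand. Another 68 lie antisense to the methionyl tRNA synthetase gene Mars, and 13 antisense to Gm4189. Whether the counting used strand is not given in the sources used here, so a small part of the Ddit3 count is uncertain. The other members shared no exonic base with another gene.

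Depth ran from 16.2 to 78.1 M estimated counts per library (M, 1e6 counts). Tissue labels fitted their markers: the photoreceptor gene Gnat1 was at 16000 to 22200 counts scaled to a library of 1e6 (CPM) in retina and at most 94.7 in nerve, and the myelin gene Mbp at 28800 to 109000 CPM in MON, 1840 to 28000 in UON and at most 71.6 in retina. The astrocyte gene Gfap was at 10500 to 18100 CPM in UON, 6400 to 16700 in MON and at most 49.9 in retina. A group of 4 libraries carried surface epithelium genes such as keratins (Krt5, Krt14, Krt15, Trp63, Elf3, Lypd3 and Krt8, picked after their values were seen). Their summed level was 2300 CPM in the MON glaucoma 6 W Female library, 1950 in MON glaucoma 2 W Male, 142 in UON glaucoma 2 W Male and 113 in UON naive Male, against 0.319 to 15.7 in the other libraries. In bulk tissue, fewer cells of a type and less RNA per cell cannot be told apart.

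The first comparison asked how the resting level of the genes differs between the tissues. Naive retina held the most Atf4, Asns, Chac1, Trib3 and Vldlr, while the nerve, and above all UON, held the most Nupr1 and Eif4ebp1. On the FPKM scale, which divides by transcript length and so allows genes to be set side by side, Nupr1 led in UON (524 ± 142, SD, n = 2) and MON (122 ± 25.9). In retina Atf4 (99.9 ± 11.5) and Ddit3 (84.2 ± 3.71) led. Ddit3, which encodes the death-linked factor CHOP, was second in UON (93.9 ± 18.4) and MON (48.6 ± 3.64). At the bottom, Trib3 and Chac1 stood at 0.833 ± 0.0655 and 0.646 ± 0.118 FPKM in UON, and at 0.288 ± 0.0323 and 0.801 ± 0.428 in MON. In retina Eif4ebp1 was lowest at 1.57 ± 0.889 FPKM, followed by Chac1 at 4.24 ± 0.558.

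**Figure D1:**
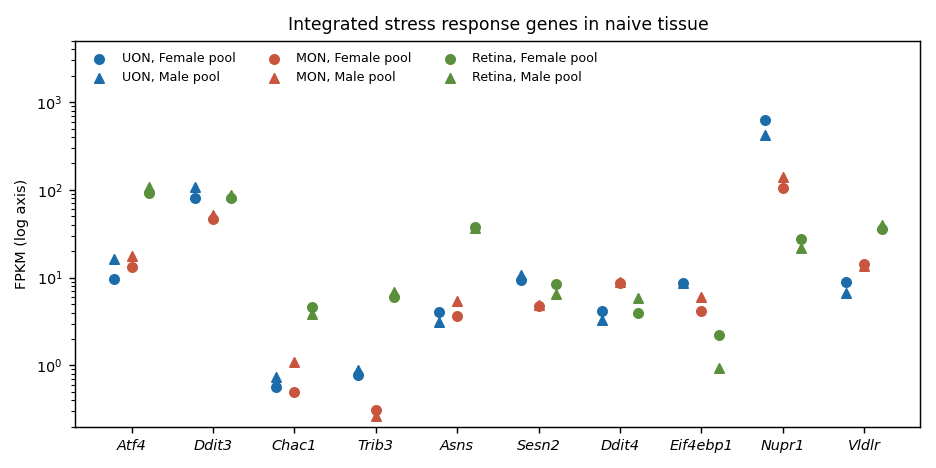
FPKM (log axis) of the 10 genes in the 6 naive libraries; each point is a pool of 2 mice, coloured by tissue and shaped by sex. Retina points lie highest for Atf4, Asns, Chac1, Trib3 and Vldlr, and UON points highest for Nupr1 and Eif4ebp1.

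Atf4 itself was at 160 and 184 CPM in naive retina (Female and Male pool, here and below), at 20.3 and 36.6 in UON and at 32.2 and 36.8 in MON. Retina was above both nerve regions in every library, by a log2 difference of 2.61 against UON (SE 0.245, edgeR quasi-likelihood test with Benjamini-Hochberg adjustment over all genes tested, adjusted p = 0.000221) and of 2.26 against MON (SE 0.241, adjusted p = 0.000454). Asns, the enzyme that makes asparagine, was at 71.4 CPM in both naive retina pools, at 9.14 and 8.01 in UON and at 9.83 and 5.36 in MON. Its log2 differences, nerve over retina, were -3.03 (SE 0.287) in UON and -3.21 (SE 0.292) in MON, with adjusted p of 0.000233 and 0.000222. Asns levels in the naive MON pools ran in opposite order on the FPKM scale, at 3.64 and 5.39, so the MON value is the least certain of these.

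Trib3, a pseudokinase that restrains AKT and ATF4 signalling, was at 10.9 and 13.8 CPM in naive retina, 1.75 and 1.98 in UON and 0.891 and 0.648 in MON. It was 15.04-fold lower in MON than in retina (log2 -3.91, SE 0.534, adjusted p = 0.00145) and lower in UON (log2 -2.69, SE 0.497, adjusted p = 0.00524). Chac1, which breaks down glutathione, was at 7.59 and 6.23 CPM in retina against 1.14 and 1.55 in UON and 1.15 and 2.18 in MON. Its log2 differences of -2.36 in UON (adjusted p = 0.0229) and -2.07 in MON (adjusted p = 0.043) were the least secure, as 3 of 6 and 4 of 6 fits without a single library lost them. Vldlr, a receptor for lipoproteins and reelin that is induced by ER stress, was at 239 and 145 CPM in retina, 77.6 and 68.2 in UON and 144 and 128 in MON. UON was below retina (log2 -1.33, SE 0.235, adjusted p = 0.00426), whereas MON over retina, at log2 -0.40 (adjusted p = 0.251), was not called. On the FPKM scale the gaps were wider, with 37.8 ± 2.85 in retina, 7.77 ± 1.55 in UON and 13.8 ± 0.445 in MON. The size of the Vldlr difference thus depends on the scale, and the cause of this was not tested.

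Nupr1, a small stress-induced chromatin protein, ran the other way, with 620 and 441 CPM in UON, 118 and 137 in MON and 22.4 and 17.6 in retina. All 3 steps were called: UON over MON at log2 2.00 (SE 0.267, adjusted p = 0.00537), MON over retina at 2.76 (SE 0.275, adjusted p = 0.000331) and UON over retina at 4.77 (SE 0.3, adjusted p = 4.35e-05), which is 27.2-fold. Eif4ebp1, the repressor of cap-dependent translation 4E-BP1, was at 21.4 and 22.7 CPM in UON, 11.8 and 14.5 in MON and 4.39 and 1.87 in retina. It was above retina in UON (log2 2.90, adjusted p = 0.00285) and in MON (log2 2.19, adjusted p = 0.0105). Ddit4, an inhibitor of the growth kinase mTORC1 also known as REDD1, was highest in MON, at 21.3 and 18.9 CPM against 9.05 and 7.44 in UON and 6.99 and 10.2 in retina. MON exceeded retina (log2 1.3, SE 0.347, adjusted p = 0.0275), a call lost in 3 of 6 fits without a single library, while UON over MON gave -1.31 (adjusted p = 0.0597).

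A gene was called where adjusted p was below 0.05 and the log2 fold change beyond 1. In naive tissue, 2 members were called higher and 5 lower in UON than in retina, beside 18.2% and 13.5% of all genes tested. Between MON and retina 3 were called higher and 4 lower, beside 16.7% and 10.9% of all genes. Between UON and MON, Nupr1 was the single member called, beside 4.83% of all genes called higher and 4.8% called lower. Ddit3 (log2 0.89, adjusted p = 0.0462) and Vldlr (-0.93, adjusted p = 0.0497) passed the p limit there but not that on fold. Sesn2, a leucine sensor that also restrains mTORC1, was at 39.7 and 48.3 CPM in UON, 23.4 and 20.4 in MON and 29.1 and 22 in retina, with no edgeR call in any pair of tissues. DESeq2 called it, with Ddit4 and Nupr1, between UON and MON (log2 1.04, adjusted p = 0.00654), beside 3675 genes in all.

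The next comparison asked what crush does in MON. At 3 D the amino acid and translation genes Asns and Eif4ebp1 and the pseudokinase Trib3 rose. Trib3 went from 0.891 and 0.648 CPM in naive MON to 8.02 and 10.3, with all crushed libraries above all naive ones, and stood at 5.64 and 3.48 at 2 W. The log2 rise at 3 D was 3.69 (SE 0.556, adjusted p = 0.0168), the largest of the 10 on the count scale. From FPKM with a pseudocount of 1 it was 1.91, below the 2.03 of Eif4ebp1. That pseudocount exceeds the naive MON Trib3 levels of 0.311 and 0.265 FPKM and so shrinks the change. Asns went from 9.83 and 5.36 CPM to 33.1 and 39.1 at 3 D (log2 2.37, SE 0.374, adjusted p = 0.0196) and stood at 13.1 and 15.5 at 2 W, between the levels of the 2 other groups. Eif4ebp1 went from 11.8 and 14.5 CPM to 39.5 and 77.6 at 3 D (log2 2.2, SE 0.311, adjusted p = 0.0151), and was at 27.8 and 29.7 at 2 W. Both pools thus showed the rise of Eif4ebp1, with the Male pool at 77.6 well above the Female pool at 39.5.

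These 3 calls compare with 3.61% of all genes called higher and 0.655% called lower in MON at 3 D. All 3 were lost when either naive MON library was left out (adjusted p 0.0768 to 0.119, with the log2 values between 1.90 and 3.78), so that each rests on both naive pools. Without the Female or the Male crush library, of 3 D or of 2 W, 6 to 8 calls were made over both times instead. With DESeq2, 6 members were called, adding Chac1 and Nupr1 as higher and Ddit4 as lower, beside 2386 genes in all. The median log2 value of the 10 genes was 0.943, against -0.0049 over all genes tested.

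The other members did not pass the test at 3 D in MON. Chac1 was at 1.15 and 2.18 CPM in naive MON and at 5.46 and 6.67 after 3 D (log2 1.99, SE 0.61, adjusted p = 0.12). Atf4 was at 32.2 and 36.8 against 48.9 and 60.8 CPM (log2 0.76, adjusted p = 0.189), and Nupr1 at 118 and 137 against 299 and 210 (log2 1.13, adjusted p = 0.145). For each of the 3 the crushed libraries lay above the naive ones. How many of all genes separate so with 2 libraries per group was not counted. Ddit4 lay on the other side, at 21.3 and 18.9 CPM in naive MON and 7.63 and 6.41 after crush (log2 -1.43, SE 0.366, adjusted p = 0.078). Ddit3 (log2 -0.40) and Vldlr (-0.38) were also lower and Sesn2 (0.62) higher, none past the limit.

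**Figure D2:**
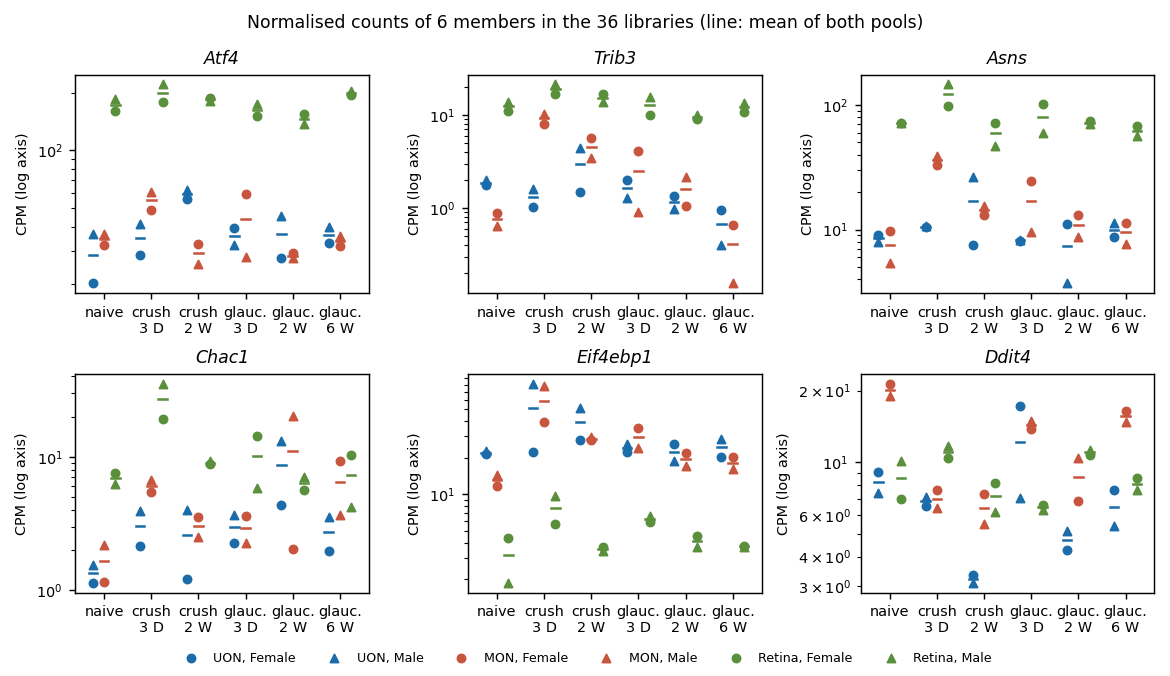
Normalised counts (CPM, log axis) of 6 members in all 36 libraries by treatment and time. Colour gives the tissue, shape the sex of the pool, and a short line marks the mean of both pools in each group. In MON, Trib3 stands at 0.891 and 0.648 in naive libraries and at 8.02 and 10.3 3 D after crush.

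Cell type markers moved in the same MON libraries. The summed level of 10 neutrophil and monocyte markers was 131 and 171 CPM in naive MON, 3579 and 7788 at 3 D and 7651 and 2037 at 2 W. Most of this sum was Lyz2, which macrophages and activated microglia also make, at 3560 and 7740 CPM at 3 D. The neutrophil marker Ly6g was at 0 in all 12 MON libraries, and the monocyte receptor Ccr2 went from 0.461 and 0.294 to 6.91 and 32.2 CPM. Other markers of the list were detected: 2 (Female) and 1 (Male) of the 10 had no counts at 3 D, against 4 and 3 in naive MON. The 7 markers tested had log2 values of 1.26 to 5.88 at 3 D. The sum of 12 oligodendrocyte markers was 167700 and 122600 CPM in naive MON, 84240 and 74480 at 3 D and 45090 and 58480 at 2 W. Microglia markers summed to 2251 and 2501, then 5370 and 7002, then 11890 and 7161 CPM, and astrocyte markers to 21330 and 14830 in naive MON against 14810 and 8087 at 3 D. The part of these shifts in the levels of Trib3, Asns and Eif4ebp1 was not tested. After crush, the pool with more Trib3 was also the pool with more Lyz2 and microglia markers. This was the Male pool at 3 D and the Female pool at 2 W. Asns and Eif4ebp1 were also higher in the Male pool at 3 D. At 2 W, Asns (13.1 and 15.5 CPM) and Eif4ebp1 (27.8 and 29.7) were instead higher in the Male pool. In naive MON the Female pool had more Trib3 (0.891 and 0.648) but the lower microglia marker sum.

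At 2 W after crush no member was called in MON with edgeR, where 2.72% of all genes were, and 7 members reached an unadjusted p below 0.05, as 16% of all genes did. Trib3 stayed closest to the limit (log2 2.64, SE 0.537, adjusted p = 0.0513). Ddit4 was at 7.30 and 5.48 CPM (log2 -1.57, adjusted p = 0.0743). With DESeq2, 4 members were called, Ddit4 as lower and the rest as higher, beside 1726 genes in all. The direct test of 2 W over 3 D called none of the 10, beside 0.075% of all genes. Asns came nearest in size (log2 -1.34, SE 0.359, adjusted p = 0.188), and DESeq2 called it (adjusted p = 0.0285), beside 1060 genes in all.

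In retina, all 10 members had a positive log2 value 3 D after crush, as had 50.9% of all genes, with a median of 0.662 against 0.00771. No member was called with edgeR, nor were more than 0.0221% of all genes, while 7 of the 10 reached an unadjusted p below 0.05 against 6.34% of all genes. Chac1 showed the widest gap, from 7.59 and 6.23 CPM in naive retina to 19.1 and 34.9 at 3 D and 8.85 and 9.27 at 2 W. The log2 value at 3 D was 1.92 (SE 0.303, adjusted p = 0.193 with edgeR), and DESeq2 called it (1.91, adjusted p = 3.01e-07), beside 135 genes in all. Asns was at 71.4 in both naive pools, 98.2 and 146 CPM at 3 D and 72.3 and 47.2 at 2 W (log2 0.77 at 3 D, adjusted p = 0.686). Ddit3 was at 72.6 and 73.9, then 97.6 and 142, then 102 and 84.3 CPM (log2 0.70 at 3 D, adjusted p = 0.548). Both 3 D libraries lay above both naive libraries for these 3 genes, though the share of all genes that separate so was not counted.

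Atf4 mRNA in retina barely separated the groups, at 160 and 184 CPM naive, 178 and 220 at 3 D and 188 and 181 at 2 W. Trib3 was at 10.9 and 13.8 CPM in naive retina and 16.8 and 21.3 at 3 D (log2 0.62). Nupr1 was at 22.4 and 17.6, then 34.2 and 36.1, then 43.1 and 37.6 CPM, with log2 0.83 at 3 D (adjusted p = 0.328) and 0.97 at 2 W (adjusted p = 0.0907). At 2 W no member was called, beside 0.313% of all genes, and Nupr1 was the only member with an unadjusted p below 0.05. From 3 D to 2 W, Chac1 (log2 -1.59, adjusted p = 0.223) and Asns (-1.08, adjusted p = 0.361) were lower without an edgeR call, beside 0.0485% of all genes. DESeq2 called both, beside 161 genes in all. RGC markers summed to 1413 and 1310 CPM in naive retina, 789 and 803 at 3 D and 240 and 206 at 2 W, and their part in these values was not tested.

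**Figure D3:**
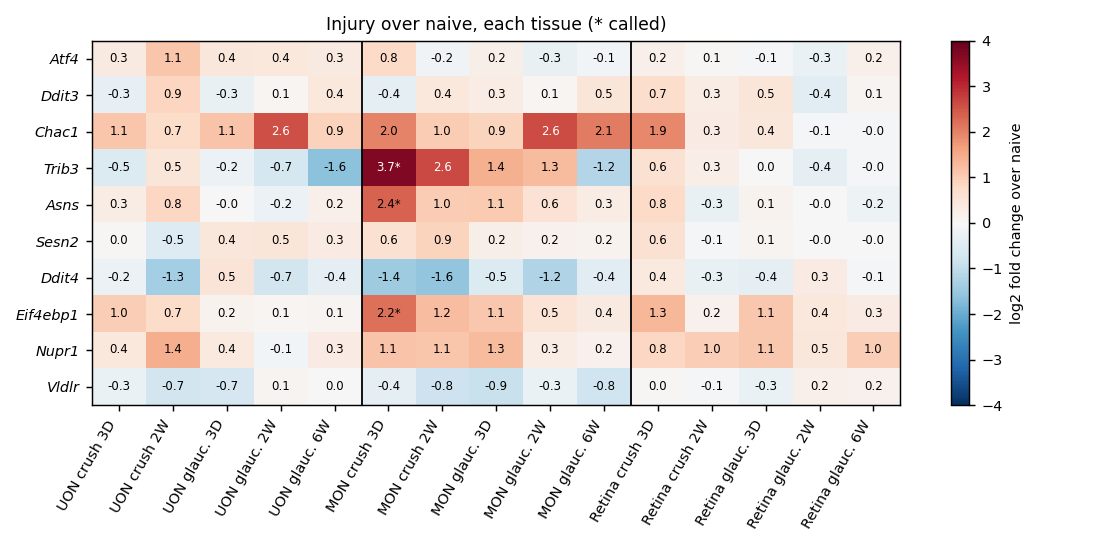
Log2 fold change over naive of each member (rows) for 5 injury groups in each tissue (columns), with an asterisk where called. The 3 asterisks fall on Trib3, Asns and Eif4ebp1 in MON 3 D after crush, and the retina column for crush at 3 D is positive in all 10 rows.

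In UON no member was called after crush, beside 0% of all genes at 3 D and 0.0281% at 2 W. At 3 D no member reached an unadjusted p below 0.05 (3.07% of all genes did), and at 2 W 5 did (9.27% of all genes). Nupr1 was at 620 and 441 CPM in naive UON, 645 and 786 at 3 D and 1120 and 1818 at 2 W. Both 2 W libraries lay above the rest (log2 1.44, SE 0.398, adjusted p = 0.488 with edgeR), and DESeq2 called it (1.47, adjusted p = 0.0236), beside 516 genes in all. In the same libraries blood markers summed to 4735 and 3650 CPM against 233 and 548 in naive UON, and microglia markers to 5138 and 3490 against 1625 and 1342. The Male 2 W library stood apart, with oligodendrocyte markers at 3268 CPM against 24730 in the Female, neutrophil and monocyte markers at 4800 against 1064 and pigment cell markers at 58.7 against 3.46. The part of these shifts in the UON values at 2 W was not tested. Atf4 was at 20.3 and 36.6 CPM in naive UON, 28.4 and 41.1 at 3 D and 55.4 and 62.4 at 2 W (log2 1.12 at 2 W, adjusted p = 0.489). Ddit3 was at 88 and 124, then 88 and 74.5, then 155 and 227 CPM (log2 0.86 at 2 W), and Ddit4 at 9.05 and 7.44 against 3.33 and 3.10 at 2 W (log2 -1.35). Trib3 in crushed UON spanned 1.03 to 4.38 CPM and Asns 7.50 to 26.3, with the pools far apart at 2 W. The direct test of 2 W over 3 D called no member, beside 0.00468% of all genes.

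After microbead injection no member was called in any tissue or at any time with edgeR, while DESeq2 called Nupr1 at 3 D in MON (log2 1.26, adjusted p = 0.00929) and in retina (1.08, adjusted p = 0.0137), Ddit4 at 2 W in MON (-1.22, adjusted p = 0.0132) and Chac1 at 2 W in UON. With edgeR the background was 0% of all genes at 3 D, 2 W and 6 W in UON and in MON, and in retina 0.00429% at 3 D, 0% at 2 W and 0.00858% at 6 W. With DESeq2, 445 genes in all were called at 3 D and 509 at 2 W in MON, 161 at 3 D in retina and 76 at 2 W in UON. The tests between times within the model also called none, beside 0% of all genes for both steps in UON and MON and, in retina, 0.00429% for 2 W over 3 D and 0.0129% for 6 W over 3 D. In MON at 3 D, 4 members reached an unadjusted p below 0.05, against 8.07% of all genes. Nupr1 was at 118 and 137 CPM in naive MON and 243 and 397 at 3 D (log2 1.25, adjusted p = 0.389), and Eif4ebp1 at 11.8 and 14.5 against 35.2 and 24.2 (log2 1.08, adjusted p = 0.454). Vldlr lay lower, at 144 and 128 CPM naive and 77.8 and 73.1 at 3 D (log2 -0.90, adjusted p = 0.415).

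The pools differed for several members at 3 D of the glaucoma model. In MON the Female pool held 24.5 CPM of Asns, 4.08 of Trib3 and 59.3 of Atf4, and the Male pool 9.62, 0.902 and 27.9. These 3 genes, picked after their values were seen, lay near naive levels in the Male pool and higher in the Female pool. Nupr1 ran the other way, at 243 CPM in the Female and 397 in the Male pool, and Ddit3 was at 59.6 and 81.5. Wider gaps between pools occurred elsewhere, such as Chac1 in MON at 2 W (2.05 and 20.1) and Eif4ebp1 in UON 3 D after crush (22.1 and 80.6). The neutrophil and monocyte marker sum was 2902 CPM in the Female against 530 in the Male MON pool. Microglia markers ran the other way in MON, at 3838 CPM in the Female and 4517 in the Male pool. In retina at 3 D the Female pool held 14.3 CPM of Chac1 and 102 of Asns, and the Male pool 5.86 and 59.2, the latter again close to naive. RGC markers summed to 641 CPM in the Female and 1136 in the Male retina pool. Neutrophil and monocyte markers (30.05 against 96.97 CPM) and microglia markers (157 against 243.5) were also lower in the Female retina pool. The part of these marker differences in the member levels was not tested. As each sex was a single pool, sex and pool cannot be told apart in these differences.

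In the nerve, Chac1 after microbead injection was highest in the 3 glaucoma libraries with surface epithelium genes. It was at 20.1 CPM in the MON 2 W Male library and 9.31 in MON 6 W Female, where the epithelium sums were 1950 and 2300 CPM, against 2.05 and 3.67 in their partner pools. In UON at 2 W it was at 4.32 and 13.2 CPM against 1.14 and 1.55 naive (log2 2.58, adjusted p = 1 with edgeR; 2.60, adjusted p = 0.00394 with DESeq2), and the epithelium sum of that Male library was 142 CPM. The UON naive Male library had an epithelium sum of 113 CPM and Chac1 at 1.55. The part of epithelial RNA in these Chac1 values was not tested.

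Crush was set against glaucoma at matched times in each tissue. No member was called with edgeR, while DESeq2 called Chac1 (log2 -1.79, adjusted p = 0.0451) and Nupr1 (1.61, adjusted p = 0.00258) at 2 W in UON and Asns at 3 D in MON (1.32, adjusted p = 0.0377). Without a filter on low counts, edgeR also called Nupr1 in UON (adjusted p = 0.0455). With edgeR the background was 0% of all genes at 3 D and 0.0418% at 2 W in UON, 0.0162% and 0.0485% in MON, and 0.0081% and 0.113% in retina. With DESeq2, 538 genes in all were called at 2 W in UON and 573 at 3 D in MON. At 3 D in MON, 5 members reached an unadjusted p below 0.05, against 10.4% of all genes, among them Trib3 (log2 2.19, SE 0.79, adjusted p = 0.392), Asns (1.27, adjusted p = 0.357) and Eif4ebp1 (1.03, adjusted p = 0.379) with more after crush. Ddit3 (-0.77) and Ddit4 (-0.97) had less. In retina at 3 D, 9 of 10 members had more after crush, as had 51.9% of all genes, with Chac1 at 1.50 (adjusted p = 1). In UON at 2 W, Nupr1 (log2 1.60, SE 0.347, adjusted p = 0.295) was the furthest above glaucoma.

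Whether the tissues respond to an unequal degree was tested on the difference of their log2 fold changes. For crush, made on the myelinated nerve, such a difference cannot be told apart from closeness to the lesion. The log2 change of Trib3 3 D after crush was higher in MON than in retina by 2.99 (SE 0.528, adjusted p = 0.0386), and was the single member called, beside 0.697% of all genes called higher and 0.185% lower. The tissues came from the same mice, and with the pools of mice as a block the difference was 2.98 and no longer called (adjusted p = 0.0538). It was also lost in 9 of 12 fits without a single library. Asns gave 1.53 (adjusted p = 0.129), Ddit4 -1.82 (adjusted p = 0.11) and Ddit3 -1.14 (adjusted p = 0.112), and DESeq2 called these 3 beside Trib3, among 1505 genes in all. Ddit3 thus had opposite signs in the tissues, at -0.40 in MON and 0.70 in retina. Chac1 had log2 values of 1.99 in MON and 1.92 in retina, with a difference of 0.048 (SE 0.591), an error too wide to show that they are alike.

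In the other tests of unequal response no member was called with edgeR. DESeq2 called Trib3 for MON minus UON at 3 D (4.02, adjusted p = 0.00453) and MON minus retina at 2 W of crush (2.32, adjusted p = 0.00221), the latter also called by edgeR without a filter (adjusted p = 0.0455), and Ddit4 for MON minus retina at 2 W of glaucoma (-1.54, adjusted p = 0.0277). In these tests DESeq2 called, in the same order, 294, 1108 and 172 genes in all. With edgeR, for MON minus retina the background was 0.622% at 2 W of crush and 0% at each glaucoma time. For MON minus UON it was 0.012% at 3 D and 0% at 2 W of crush and 0% at each glaucoma time, and Trib3 at 3 D of crush was 4.09 (SE 1, adjusted p = 0.325). For UON minus retina it was 0.0115% at 3 D and 0.0689% at 2 W of crush and 0% at each glaucoma time, with Atf4 at 2 W at 1.03 (adjusted p = 0.506).

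The other genes of the pathway were read beside the members 3 D after crush, where 3.61% of all genes were called higher and 0.655% lower in MON, and 0.0221% in either direction in retina. A single call in a list of about 20 genes is near that share. Of 22 further ATF4 targets in amino acid supply, 1 was called in MON, the proline pathway enzyme Aldh18a1 (log2 2.65, adjusted p = 0.0304), and none in retina. The list's median was 0.31 in MON and 0.506 in retina. Phgdh, the first enzyme of serine synthesis, was at 551 and 434 CPM in naive MON and 290 and 223 after crush, but at 13.5 and 15.4 in naive retina and 32.4 and 55.0 after crush. Its response differed between MON and retina by -2.45 (SE 0.426, adjusted p = 0.0374), and by -2.43 with the block by pool of mice (adjusted p = 0.0602). Psat1, the next enzyme of that path, was at 695 and 497 CPM in naive MON and 366 and 198 after crush. Thus Asns was higher while Phgdh and Psat1, picked after their values were seen, lay lower in the same MON libraries. In MON 0 genes of the list were called lower. Astrocyte markers lay lower in these libraries too (list median -1.3), and their part in these values was not tested.

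Of 14 secreted and signalling targets, 2 were called in MON (median 1.0) and none of the 12 tested in retina (median 0.238). Gdf15, a stress cytokine, went from 0.700 and 0.589 CPM to 13.8 and 18.1 in MON (log2 4.81, SE 0.711, adjusted p = 0.0164), and Gadd45a, a growth arrest gene, rose by 1.34 (adjusted p = 0.0498). Fgf21, a stress hormone, had 0 counts in both naive MON libraries and 29 and 72 counts 3 D after crush. In the glaucoma MON libraries at 3 D it had 44 counts in the Female and 3 in the Male pool, the same pools in which Asns and Trib3 differed. Among 8 ATF and C/EBP partner factors, Atf3 rose in MON (log2 1.60, SE 0.284, adjusted p = 0.0273) and no other was called in either tissue.

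All 20 cytosolic aminoacyl tRNA synthetases had positive log2 values in MON, from 0.285 to 1.51 with a median of 0.666, and Rars was called (1.51, adjusted p = 0.0353). Of all genes tested 49.8% had positive values. In retina their median was 0.329 and none was called. Of 14 eIF2 kinases and eIF2 partners none was called in either tissue, with medians of 0.242 and 0.0819. Of 19 ER chaperone and sensor genes of the ATF6 and XBP1 arms, Sdf2l1 (1.92, adjusted p = 0.0252) and Edem1 (1.58, adjusted p = 0.0332) rose in MON, with a list median of 0.948 there and -0.0777 in retina. The response of Sdf2l1 differed between the tissues by 2.17 (SE 0.378, adjusted p = 0.0374), and by 2.15 with the block by pool of mice (adjusted p = 0.0222).

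**Figure D4:**
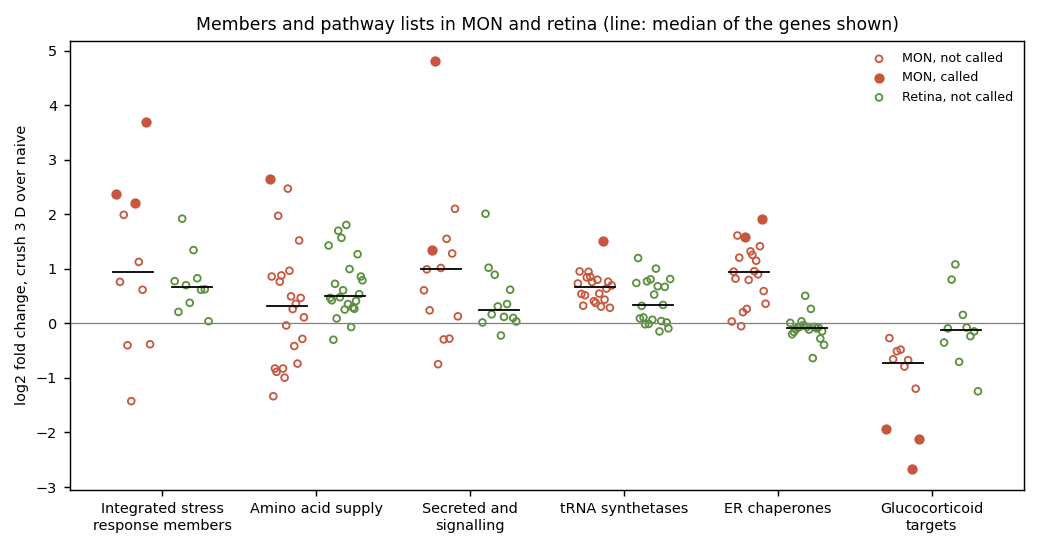
Log2 fold change 3 D after crush over naive for each member and each gene of the pathway lists, in MON and retina; filled points are called, and black lines are medians of the genes shown, with Fgf21, at 0 in naive MON, left out. The tRNA synthetases all lie above 0 in MON, and the ER chaperones have a median of 0.948 in MON and -0.0777 in retina.

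Ddit4 answers to glucocorticoids and hypoxia as well as to ATF4, so those lists were read beside its lower level in MON. Of 10 glucocorticoid targets, Zbtb16 (log2 -2.13), Sult1a1 (-2.68) and Cdkn1c (-1.94) fell in MON 3 D after crush, with adjusted p between 0.0387 and 0.0456, beside 0.655% of all genes called lower, all 10 had negative values and the median was -0.733. In retina the median was -0.12 with none called. None of 13 hypoxia targets was called in either tissue, with medians of 0.352 in MON and -0.125 in retina. Of 13 p53 targets, Plk2 rose in MON (log2 2.42, adjusted p = 0.0207), with a list median of 0.73, against 0.134 in retina with none called. What part these inputs have in the Ddit4 level was not tested.

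Across the 12 libraries of each tissue, positive correlation between members was most frequent in retina. Of 45 pairs of members, 41 had a positive Pearson correlation of log2 CPM in retina (median r = 0.303), against 25 in MON (0.0603) and 23 in UON (0.0291). Pairs with r below -0.5 numbered 0 in retina, 9 in MON and 10 in UON. The share over pairs of all genes was not computed, so whether these counts are particular to the members was not tested. These are descriptions over libraries that share injury groups and pools. The genes most like Chac1 in retina among 10959 compared were Phgdh (Pearson r = 0.961, Spearman correlation 0.881), Gars, the glycyl tRNA synthetase (0.927, 0.741), and Eprs, the glutamyl-prolyl tRNA synthetase (0.923, 0.79). Without the 2 crush libraries at 3 D, r was 0.883, 0.744 and 0.715. In MON the genes most like Chac1 were Upp1 (r = 0.91), Cbr2 (0.903) and Rhod (0.886), and in UON Cdon (0.866), Trio (0.865) and Eno3 (0.806). Without the 2 libraries furthest from the median of Chac1, r was 0.8, 0.803 and 0.798 in MON and 0.712, 0.697 and 0.589 in UON. In both tissues these included the glaucoma 2 W Male library, which carried surface epithelium genes. Those most like Atf4 were Vim (0.929), Taf11 (0.915) and Npc2 (0.912) in UON, Hnrnpa1 (0.953), Psma6 (0.941) and Pcna (0.936) in MON, and Rpp25l (0.846) and Rbm12 (0.818) in retina. Without the 2 libraries furthest from the median of Atf4, r was 0.833 to 0.921 in UON, 0.838 to 0.952 in MON, and 0.627 and 0.662 in retina.

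**Figure D5:**
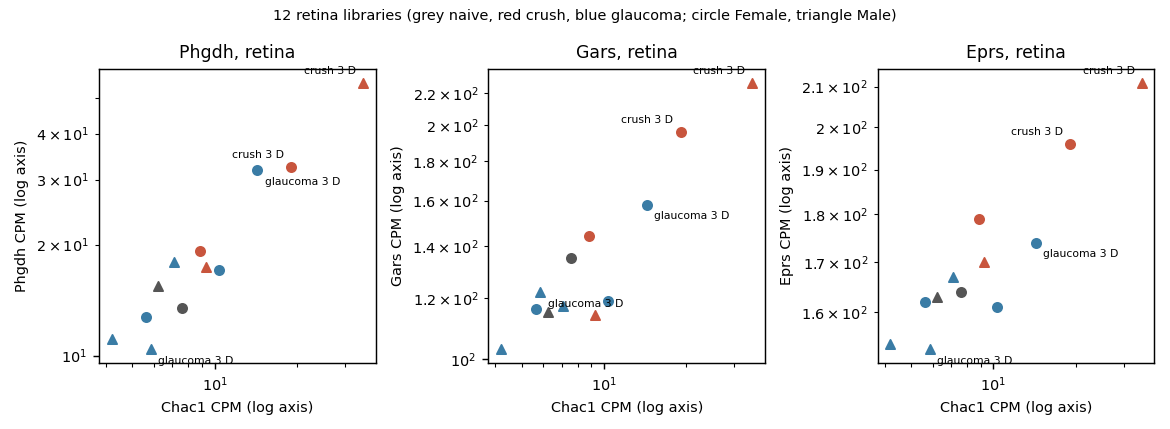
CPM (log axes) of Phgdh, Gars and Eprs against Chac1 in the 12 retina libraries, each point a pool; grey is naive, red crush and blue glaucoma. The 2 crush libraries at 3 D, with Chac1 at 19.1 and 34.9 CPM, lie furthest to the right, and Phgdh has r = 0.961.

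Of the members, Vldlr is described by transcript here, chosen after values were seen. By the deposited transcript estimates, the transcript Vldlr-207 made up a median of 92.2% of Vldlr in UON (range 60.4 to 98), 88.9% in MON (58.6 to 97.6) and 55% in retina (4.84 to 86). Vldlr-208 made up 24.4% in retina (5.35 to 71.4), 4.7% in UON (0 to 16.9) and 3.99% in MON (0 to 10.3). The ranges of retina and nerve overlapped, and the retina libraries varied widely among themselves.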

How the data were processed

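Libraries were made with an ultra-low-input kit from TRIzol RNA pooled by sex and sequenced as paired reads of 150 bases. The authors aligned reads to GRCm38 with HISAT2 (2.2.1) and quantified Gencode M25 genes with StringTie (1.3.0). The deposited estimated counts, derived by the authors from StringTie coverage, are whole numbers but not reads. The deposited FPKM values, normalised by the authors for length and depth, were used to compare genes, with values just below 0 set to 0. The files also hold a second Ddit3 identifier, which was not used.

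Counts were tested with edgeR 4.0.16 (R 4.3.3), using TMM factors, a minimum count of 10 and total of 15, group and sex terms, the quasi-likelihood F test and Benjamini-Hochberg adjustment over all genes tested. Fits held the naive libraries together, each tissue and injury model with its naive group, all 12 libraries of a tissue for crush over glaucoma, or 2 tissues for unequal response. A call needed adjusted p below 0.05 and a log2 fold change beyond 1. CPM used TMM factors over all 36 libraries. Alternatives were DESeq2 1.42.0, DESeq2 size factors, no filter, no sex term, wider fits, a block by pool of mice, FPKM values and each library left out. Leaving out both MON libraries with surface epithelium genes was added after seeing the data. The fits were tested on simulated data.

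The naive fit across tissues has the pool as its sex term. Pools pair across tissues because, by the study's methods, the tissues came from the same mice. Differences between Female and Male pools correlated across tissues at -0.108 to 0.209 over 18 pairs and 12809 genes. The members, lists and tests were chosen with earlier results of these data known. All 10 members were named, with called genes of the lists (at most 6 per list and comparison) and, for Atf4 and Chac1, the 3 genes most like them in each tissue by Pearson correlation of log2 CPM among genes with a mean of at least 5 CPM. One gene named by this rule in retina is not reported here. Phgdh in MON and retina, Psat1 and Fgf21 were added after their values were seen, as were Lyz2 and Ccr2 levels and blocked fits of Phgdh and Sdf2l1. Depth limits the genes near 1 CPM most. Counting error is not the only error, since each group had 2 pools.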

Additional observations from a re-analysis of the deposited data

Results flagged for a closer look

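In the main test of the difference itself, 3 genes were called for an unequal response to crush at 3 D in MON and retina. They were found by looking through the 10 members and all genes of the pathway lists. Of all genes tested, 0.697% were called higher in MON and 0.185% lower. For Trib3 the log2 change was higher in MON by 2.99 (SE 0.528, adjusted p = 0.0386), with both pools of MON at 8.02 and 10.3 CPM against 0.891 and 0.648 in naive MON. With the pools of mice as a block it was 2.98 and not called (adjusted p = 0.0538), and 9 of 12 fits without a single library lost it. For the serine synthesis enzyme Phgdh the difference was -2.45 (SE 0.426, adjusted p = 0.0374), with lower values in both crushed MON pools and higher values in both crushed retina pools, but it was not called with the block (-2.43, adjusted p = 0.0602) and was lost in 5 of 12 fits without a single library. For Sdf2l1, an ER chaperone cofactor, it was 2.17 (SE 0.378, adjusted p = 0.0374), called with the block as well (2.15, adjusted p = 0.0222) and lost in 6 of 12 fits without a single library.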

How the results depend on the processing

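The counts of members called were recomputed under each alternative, and none of the called values changed sign. Between naive UON and MON, 1 call became 3 with DESeq2, 2 with DESeq2 size factors, 3 without a filter, 2 without the sex term, 3 with all 36 libraries and 1 to 3 without a single library. Against retina, 7 calls in UON became 6 to 7 and 7 in MON became 5 to 7 without a single library. After crush in MON, over both times, 3 calls became 10 with DESeq2, 6 without a filter, 5 without the sex term, 5 with all 12 libraries and 0 to 8 without a single library, 0 without either naive library. For unequal response of MON and retina, 1 call became 6 with DESeq2, 3 without a filter, 0 with the replicate block by pool of mice and 0 to 1 without a single library. The block changed no other call of a member. Where the main count was 0, DESeq2 gave 1 after crush in UON, 1 after glaucoma in UON, 2 after glaucoma in MON, 1 after crush and 1 after glaucoma in retina, 1 between times in MON, 2 between times in retina, 2 between crush and glaucoma in UON, 1 between them in MON and 1 for MON against UON. No filter gave 1 after crush in retina, 1 between times in MON and 1 between crush and glaucoma in UON. Leaving out a single library gave 0 to 1 after crush in retina, between times in retina, between crush and glaucoma in UON, and for unequal response of MON and UON and of UON and retina, and 0 elsewhere. Without both MON libraries with surface epithelium genes the glaucoma comparisons of MON had 0 calls, as before, with 1 library left at 2 W and at 6 W. The cause of these moves was not tested. The median log2 value of all genes in a comparison reached at most 0.188 in absolute size with DESeq2 size factors and 0.327 without a filter. In the main fits it was -0.169 for naive UON over retina. On the FPKM scale with a pseudocount of 1, Trib3 in crushed MON was 1.91 in place of 3.69. Its naive MON levels, at 0.311 and 0.265 FPKM, lie below that pseudocount, which shrinks the change. Genes near 1 CPM, such as Trib3 and Chac1 in naive nerve, are limited by depth.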
